A study of Mus musculus with 19 samples.

Results

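Synaptotagmins, SNAREs and complexins, the proteins that fuse vesicles with membranes, were followed across the main neuron classes of the mouse lateral hypothalamic area. Members were the 57 of 52636 mouse gene identifiers in the count table whose names begin with Syt, Stx, Stxbp, Vamp, Snap or Cplx followed by a number. They were 17 synaptotagmins, 4 complexins, 5 SNAREs of neuronal release, 21 other SNAREs, 7 genes of the Stxbp name, 2 processed pseudogenes and Snap91, a clathrin adaptor (AP180) that shares only the name. The rule reads gene names alone, and it was chosen with earlier results of these data known.

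Cells came from 7 male mice carrying Agrp-IRES-Cre and the Ai9 reporter, aged 6 to 8 weeks, which mark AGRP neurons of the arcuate nucleus with tdTomato. Fluorescent AGRP axons showed the borders of the area, and cells without fluorescence were picked by hand into 19 plates, each of which is a sample of the same group. All 4 classes below therefore share genotype, sex and age, and no class carried a treatment. The classes were set from counts alone: Pmch neurons had at least 1% of their counts in Pmch (melanin-concentrating hormone), Hcrt neurons at least 1% in Hcrt (hypocretin, also called orexin), Gad neurons neither but at least 5 counts of Gad1 and Gad2 (the enzymes that make GABA), and Gad-low cells neither peptide and under 5 such counts.

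Release at a synapse starts when a synaptobrevin on the vesicle (Vamp1 or Vamp2) and the plasma membrane proteins syntaxin (such as Stx1a) and Snap25 wind into a SNARE bundle. Complexins clamp the half-wound bundle and then aid fusion, and synaptotagmins couple fusion to calcium. The same bundle also serves the large dense-core vesicles that hold peptides such as hypocretin and melanin-concentrating hormone, and other syntaxins and Vamp proteins drive traffic between endosomes, Golgi and plasma membrane.

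RefSeq promoters (250 bases before to 50 after each start, GRCm38.p6) were listed for 42 of the 57 members, and those of 4 members are shown because these genes were lower in Hcrt than in Gad neurons and higher in Pmch than in Hcrt neurons, each by at least 1 on the log2 scale, as described below. Capitals mark GGGCGG (a GC box) and TGACG (the half-site of the cyclic AMP response element) on either strand. The Cplx1 promoter is at chr5:108549978-108550277 on the minus strand, Vamp1 at chr6:125215331-125215630 on the plus strand, Syt1 at chr10:109010926-109011225 on the minus strand (2 starts are listed, and the farther upstream is shown), and Cplx2 at chr13:54302306-54302605 on the plus strand, a start that lies upstream of the Cplx2 gene of GENCODE M21. The protein-coding genes themselves lie at chr5:108518554-108550024 (Cplx1, ENSMUSG00000033615), chr6:125215551-125245964 (Vamp1, ENSMUSG00000030337), chr10:108497650-109010982 (Syt1, ENSMUSG00000035864) and chr13:54371349-54383917 (Cplx2, ENSMUSG00000025867).
Cplx1: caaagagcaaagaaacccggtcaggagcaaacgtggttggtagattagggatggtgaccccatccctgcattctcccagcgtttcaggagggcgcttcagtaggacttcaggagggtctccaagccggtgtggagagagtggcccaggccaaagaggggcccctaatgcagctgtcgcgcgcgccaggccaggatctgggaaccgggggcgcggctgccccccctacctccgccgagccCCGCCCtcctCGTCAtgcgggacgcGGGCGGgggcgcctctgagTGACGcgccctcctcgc
Vamp1: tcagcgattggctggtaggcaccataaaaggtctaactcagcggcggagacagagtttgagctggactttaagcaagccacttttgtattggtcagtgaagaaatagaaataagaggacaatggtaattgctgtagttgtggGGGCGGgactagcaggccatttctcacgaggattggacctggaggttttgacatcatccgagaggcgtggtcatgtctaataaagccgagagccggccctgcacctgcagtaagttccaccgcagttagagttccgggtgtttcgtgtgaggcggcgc
Syt1: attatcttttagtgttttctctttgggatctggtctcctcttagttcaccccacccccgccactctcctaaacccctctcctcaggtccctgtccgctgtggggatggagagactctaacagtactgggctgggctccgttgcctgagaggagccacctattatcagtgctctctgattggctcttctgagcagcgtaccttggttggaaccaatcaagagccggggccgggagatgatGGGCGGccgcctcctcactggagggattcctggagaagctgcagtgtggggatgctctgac
Cplx2: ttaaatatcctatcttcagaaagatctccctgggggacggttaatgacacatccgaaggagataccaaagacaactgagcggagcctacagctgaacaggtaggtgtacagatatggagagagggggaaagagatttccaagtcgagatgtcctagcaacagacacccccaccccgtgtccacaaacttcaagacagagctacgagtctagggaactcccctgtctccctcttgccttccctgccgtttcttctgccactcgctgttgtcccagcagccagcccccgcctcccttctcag
Cplx1 holds 2 GC boxes and 2 half-sites near its start, Vamp1 and Syt1 hold 1 GC box each, and the Cplx2 window holds neither motif, so the 4 genes share neither. GGGCGG was found in 35.7% of 32851 RefSeq promoters and in 35 of 53 promoters of members, and TGACG in 20.8% of all and 12 of 53 of members; the motifs do not overlap each other. These are matches of letters, not measured binding sites.

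Of 1612 wells labelled as lateral hypothalamic area, 1534 had at least 1000 detected genes. They held 68 Pmch neurons, 1065 Hcrt neurons, 327 Gad neurons and 71 Gad-low cells, and 3 cells with both peptides were left out. A cell had a median of 59063 counts in Pmch, 45722 in Hcrt, 24486 in Gad and 24969 in Gad-low. All wells of a plate with the area's label, kept or not, summed to between 1835746 and 5070306. Slc17a6, the vesicular glutamate transporter, had a count in 70.6% of Pmch, 88.5% of Hcrt, 6.73% of Gad and 69.0% of Gad-low cells, and Slc32a1, the vesicular GABA transporter, in 1.47%, 2.44%, 62.4% and 2.82% of the same classes. Gad1 was also high in Pmch neurons, at 564 ± 149 CPM against 26.7 ± 7.98 CPM in Hcrt neurons (SD, n = 13 plates).

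Counts were summed per plate and class where at least 3 cells were present, which gave 13 Pmch, 19 Hcrt, 16 Gad and 10 Gad-low libraries. The unit of every level below is CPM, a count divided by the size of its library after TMM scaling. This scaling sets libraries of different make-up on a common scale. Hcrt and Pmch themselves take a large share of their neurons' counts. Ranges and medians are over all libraries of a class unless stated, while each test uses the plates that hold both classes. P-values rest on how the difference between the compared classes varies from plate to plate. The 19 plates came from 7 mice with no label tying a plate to a mouse, so the p-values may be too small.

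Most libraries carried neuronal markers, and 2 Gad-low libraries did not match their class. All 8 neuron markers had counts in every class, and their summed level per library ran from 8745 to 14626 CPM in Pmch, 9102 to 15386 in Hcrt, 7555 to 13108 in Gad and 120.3 to 12815 in Gad-low cells. Of 71 Gad-low cells, 9 failed the neuron criterion, and 8 of these lay nearer to the wells labelled qRNA, whose content is not stated, than to neurons: 4 of the 9 cells of plate 14 and all 4 cells of plate 19. Members that passed in a comparison with Gad-low cells are therefore also given without these 2 plates, and shares also for the cells that met the neuron criterion. Among the other classes 18 Hcrt, 2 Gad and 0 of 68 Pmch cells (up to 5.28% at 95% confidence) failed it, and 10 of the 18 Hcrt cells led with oligodendrocyte genes. The summed level of 8 oligodendrocyte markers reached 53.4 CPM in Pmch, 1797 in Hcrt, 820.1 in Gad and 8185 in Gad-low libraries, with medians of 20.4, 56.6, 50.7 and 70.9 CPM, and its part in the results was not tested beyond the fits on neurons alone.

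Members took 0.797% of all counts in Pmch, 0.665% in Hcrt, 0.950% in Gad and 0.790% in Gad-low cells. In the wells labelled ERCC or empty that had under 1000 counts, with a median depth of 168, members took 0.459% of the counts, a median of 1 count a well. Hcrt libraries pool the most cells, at 26 to 80, whereas a Gad-low library may hold 3 cells and 30464 counts.

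The plot of levels by plate shows the main pattern, which is one against Gad neurons. Compared with these, Hcrt neurons were high in Syt4, Syt5, Syt13 and Syt7 and low in Syt1, both complexins, Vamp1 and Snap25, while Vamp2 and Syt11 did not pass the test. The pattern held only in part against the other classes. Syt4 did not pass between Hcrt and Pmch neurons, and Syt7, Syt1, Cplx2 and Snap25 did not pass between Hcrt neurons and Gad-low cells of all plates.

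**Figure D1:**
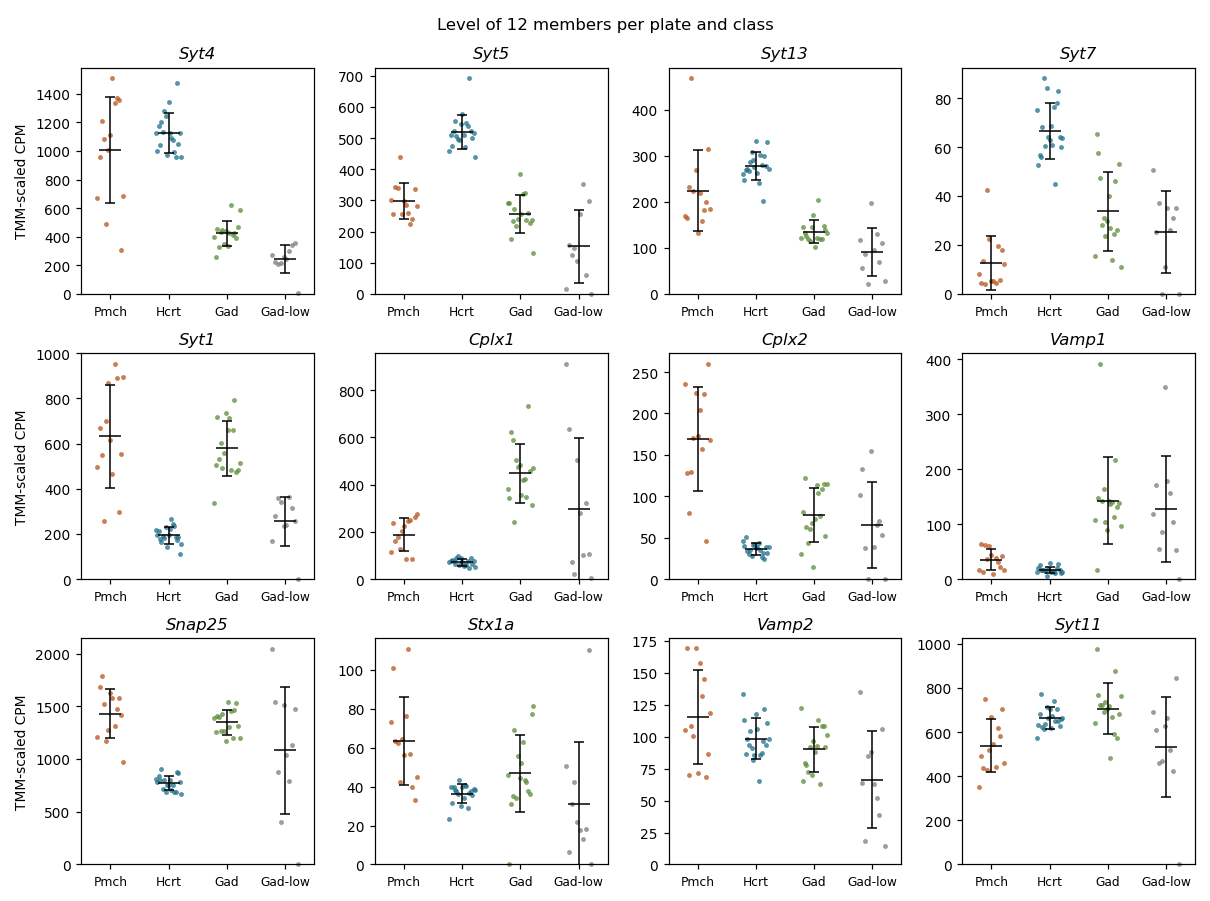
Level of 12 members (TMM-scaled CPM, linear axes from 0) in each library of summed cells: 13 Pmch, 19 Hcrt, 16 Gad and 10 Gad-low plates. Points are plates and black bars the mean ± SD. Hcrt plates lie above every Gad plate for Syt4 and Syt5 and below every Gad plate for Syt1, Cplx1 and Snap25; the lone Gad-low point near 0 in most panels is plate 19.

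Hcrt neurons were compared with Gad neurons of the same 16 plates (833 and 321 cells). Of 41 members that passed the filter on low counts, 10 were higher and 10 lower in Hcrt neurons by edgeR's quasi-likelihood test with the plate as a block and Benjamini-Hochberg adjusted p under 0.05 over 9271 genes. Among all genes tested, 21.7% were higher and 17.2% lower. Plate values of the classes did not overlap for 6 of the 41 members and for 4.07% of all genes. The members' median log2 fold change was 0.04, against 0.03 over all genes, and the members' shares in both directions lay near those of all genes; the changes are those of single members. The remaining 16 members had too few counts for the test and are given after the tested ones. This count of lower members depends on the scale: with plain library totals, which move the median of all genes to -0.38, 7 members were higher and 21 lower, and the split over all genes was 829 higher and 4100 lower in place of 2016 and 1596. All changes below are relative to TMM scaling.

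Among the SNAREs of neuronal release, Vamp1 and Snap25 were lower in Hcrt neurons. Vamp1, a synaptobrevin, ran from 6.04 to 28.8 CPM over Hcrt plates (median 15.8) and from 16.3 to 392 CPM over Gad plates (median 138). Only plate 2 among the Gad plates reached down into the Hcrt range. The log2 fold change was -3.17 ± 0.18 (approximate SE, adjusted p = 3.84e-20), a level 8.98-fold lower in Hcrt neurons, and Hcrt was lower in 15 of 16 plates. Tapbpl and Cd27 overlap Vamp1 on the opposite strand in GENCODE M21, and whether the counting used strand is not given in the sources used here, so their reads cannot be told apart. Snap25, the plasma membrane partner of syntaxin, ran from 670.4 to 904 CPM in Hcrt (median 779) and from 1171 to 1543 CPM in Gad (median 1352). The classes did not overlap, and the log2 fold change was -0.83 ± 0.05 (adjusted p = 2.80e-19).

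Vamp2 and Stx1a did not pass the test. Vamp2, the main synaptobrevin of forebrain synapses, had 65.0 to 133 CPM in Hcrt (median 96.5) and 63.3 to 122 CPM in Gad (median 91.8), with a log2 difference of 0.07 and an approximate 95% interval of -0.15 to 0.30; with plain library totals it was -0.34 and passed the test. Stx1a had 23.6 to 43.5 CPM in Hcrt (median 38.0) and 0 to 81.3 CPM in Gad (median 44.0), with a log2 difference of -0.38 and an interval of -0.73 to -0.03 before adjustment (adjusted p = 0.0897).

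Both complexins that passed the filter were lower in Hcrt neurons. Cplx1 ran from 46.7 to 98.7 CPM over Hcrt plates (median 73.4) and from 242 to 731 CPM over Gad plates (median 442). The lowest Gad plate lay above the highest Hcrt plate, and the log2 fold change was -2.74 ± 0.10 (adjusted p = 4.48e-26), or 6.66-fold lower. Cplx2 ran from 24.1 to 50.5 CPM in Hcrt (median 38.2) and from 14.8 to 122 CPM in Gad (median 74.6), overlapping, with a log2 fold change of -1.05 ± 0.16 (adjusted p = 5.59e-07). The other complexins, Cplx3 and Cplx4, known mainly from ribbon synapses of the retina, had at most 5 counts in any class.

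Synaptotagmins went both ways: of 12 tested, 5 were lower and 5 higher in Hcrt neurons, beside 17.2% and 21.7% of all genes. Syt1, the calcium sensor of fast synchronous release, ran from 112.7 to 264 CPM over Hcrt plates (median 190.2) and from 337 to 791 CPM over Gad plates (median 546). The classes did not overlap, and Syt1 was 3.02-fold lower in Hcrt neurons (log2 fold change -1.60 ± 0.08, adjusted p = 1.79e-22). Syt16, a synaptotagmin not known to bind calcium, had 0 to 6.32 CPM in Hcrt (median 2.80) and 15.3 to 119 CPM in Gad (median 25.7), again without overlap, and a log2 fold change of -3.81 ± 0.36 (adjusted p = 1.22e-12). Syt12 had medians of 3.27 CPM in Hcrt and 20.9 CPM in Gad (log2 fold change -2.78 ± 0.43), Syt9 of 11.1 and 35.4 CPM (-1.63 ± 0.26), and Syt3, a sensor with high calcium affinity, of 23.5 and 46.4 CPM (-1.10 ± 0.19). Each of these 3 was lower in Hcrt in 15 of 16 plates, with overlapping ranges and adjusted p-values of at most 4.73e-06.

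Syt4, a synaptotagmin found on dense-core vesicles that binds calcium weakly or not at all, was higher in Hcrt neurons. It ran from 957 to 1476 CPM over Hcrt plates (median 1123) and from 261 to 622 CPM over Gad plates (median 426). An antisense gene, Gm26658, overlaps Syt4 on the opposite strand. No Gad plate reached the Hcrt range, and Syt4 was 2.55-fold higher (log2 fold change 1.35 ± 0.07, adjusted p = 1.44e-22). Syt5, a calcium-binding synaptotagmin of secretory vesicles whose name has been exchanged with Syt9 in part of the literature, ran from 439.7 to 692 CPM in Hcrt (median 511) and from 131 to 386 CPM in Gad (median 249). It did not overlap either and was 2.11-fold higher (log2 fold change 1.07 ± 0.07, adjusted p = 2.64e-17).

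Syt13, which lacks the usual calcium-binding residues, ran from 202 to 333 CPM in Hcrt (median 275) and from 102.3 to 205 CPM in Gad (median 129.6). Its ranges touched only at their ends, and it was higher in Hcrt neurons in 16 of 16 plates (log2 fold change 1.02 ± 0.08, adjusted p = 4.11e-15). Syt7, the slow sensor of high calcium affinity behind asynchronous release and facilitation, had 45.0 to 88.04 CPM in Hcrt (median 63.9) and 11.1 to 65.1 CPM in Gad (median 29.0). The ranges overlapped, and Syt7 was higher in Hcrt in 14 of 16 plates (log2 fold change 0.99 ± 0.18, adjusted p = 1.14e-05). Syt17, also called B/K protein, had medians of 59.8 CPM in Hcrt and 28.7 CPM in Gad and was higher in 16 of 16 plates (log2 fold change 1.19 ± 0.19). Syt11, the closest relative of Syt4 in sequence, did not pass: it had 572 to 774 CPM in Hcrt (median 659) and 481 to 977 CPM in Gad (median 710.1), a log2 difference of -0.07 with an interval of -0.18 to 0.05.

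**Figure D2:**
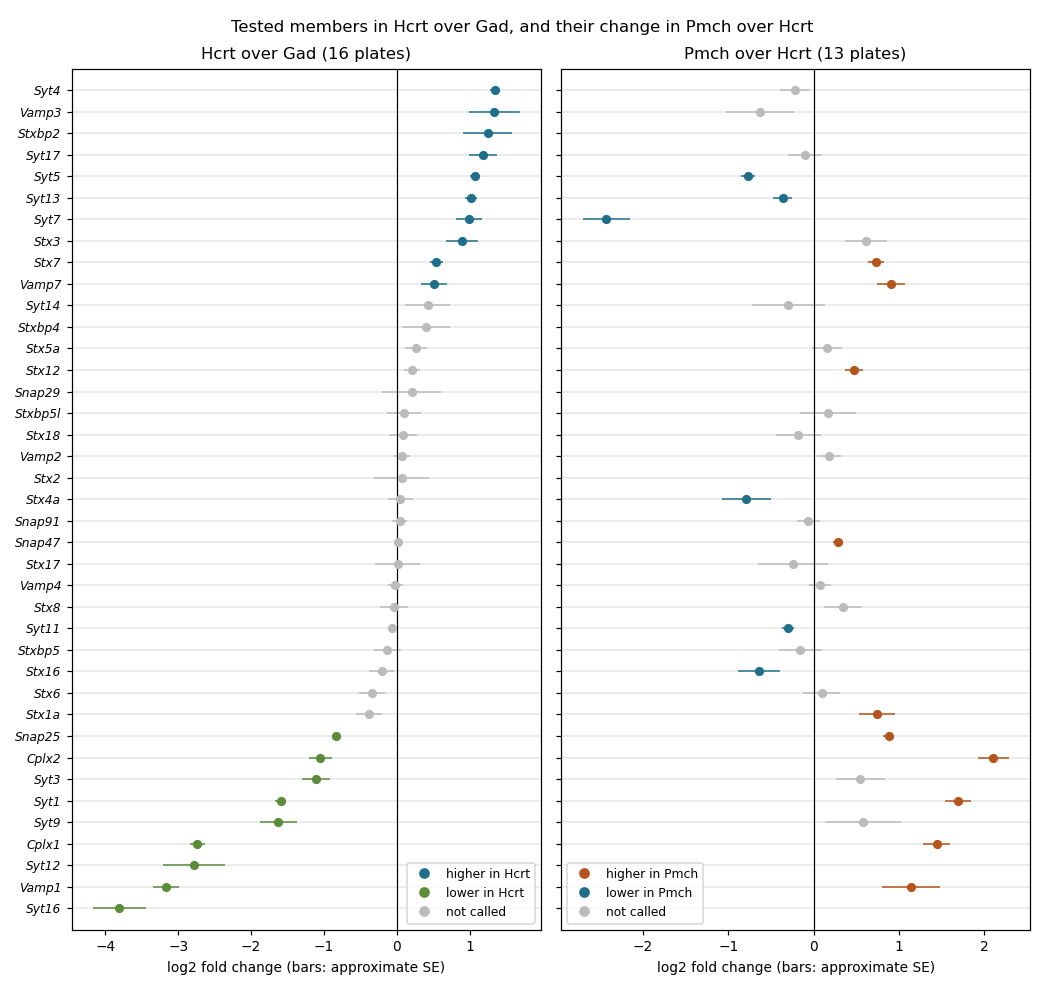
Log2 fold change (points) and approximate standard error (bars) of 39 members tested in Hcrt over Gad neurons, left, and of the 33 among them tested in Pmch over Hcrt neurons, right, in the same order from top to bottom. Colour marks adjusted p under 0.05 and grey points did not pass. The comparisons share the Hcrt libraries of their common plates, so the panels are not independent.

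Among the 16 tested SNAREs of other traffic steps 4 were higher in Hcrt neurons and 0 were lower (0 by DESeq2 also, and 0 at an unadjusted p under 0.05). They are named because they passed, outside the naming rule. The shares over all genes in this comparison were 21.7% higher and 17.2% lower. Stx7, a syntaxin of late endosomes, had medians of 263 CPM in Hcrt and 169 CPM in Gad (log2 fold change 0.54 ± 0.09, 15 of 16 plates). Vamp7, its partner on late endosomes and lysosomes, had medians of 59.6 and 50.7 CPM in the same classes (0.51 ± 0.18, 10 of 16 plates). Stx3, a plasma membrane syntaxin, had medians of 38.4 CPM in Hcrt and 17.4 CPM in Gad (0.89 ± 0.22), and Vamp3, a synaptobrevin relative of recycling endosomes, of 17.7 and 7.01 CPM (1.34 ± 0.35). Stxbp2, best known from epithelial and immune secretion, passed as well, with medians of 17.3 CPM in Hcrt and 5.47 CPM in Gad (1.25 ± 0.34). Snap47, a relative of Snap25, had medians of 1901 CPM in Hcrt and 1890.2 CPM in Gad and a log2 difference of 0.02 with an interval of -0.07 to 0.11.

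Of the 16 untested members, 5 passed when no gene filter was applied: Syt2, Syt6, Stxbp6 and Syt10 were lower in Hcrt neurons and Stxbp3 was higher. Syt2, which takes the place of Syt1 at many fast synapses of the hindbrain, had 49 counts in 1065 Hcrt cells and 373 counts in 327 Gad cells. It ran from 0 to 3.47 CPM over Hcrt plates (median 0.627) and from 0 to 125 CPM over Gad plates (median 22.5). Syt6 had 162 counts in Hcrt and 302 in Gad cells, with plate medians of 3.16 and 24.9 CPM. Stxbp3 had 456 counts in Hcrt and 31 in Gad cells, with plate medians of 8.42 and 1.23 CPM. In that fit the log2 fold changes were -4.86 for Syt2, -2.86 for Syt6, -3.44 for Stxbp6, -2.31 for Syt10 and 2.22 for Stxbp3. Of all 36319 genes in it, 3067 were higher and 1481 lower in Hcrt neurons.

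Hcrt neurons were also compared with Gad-low cells of the same 10 plates (472 and 59 cells). Slc17a6 had a count in 69.0% of all 71 Gad-low cells, including those of other plates. Of 36 members tested, 4 were higher and 2 lower in Hcrt neurons (edgeR, over 7554 genes), against 6.27% higher and 0.702% lower among all genes. Plate values did not overlap for 3 members and 2.46% of all genes. The members' median log2 fold change was 0.34 and that of all genes 0.28. The split over all genes moved with the scale. With size factors by relative log expression the median of all genes was 0.01, and 239 were higher and 98 lower in place of 474 and 53. The members' split was then 3 higher and 2 lower, in place of 4 and 2. With plain totals the split over all genes was 155 higher and 235 lower. Without plates 14 and 19, 4 members were higher and 4 lower, and with cells that met the neuron criterion 4 and 4 as well. Over all genes the splits were 596 higher and 141 lower of 7437 without these plates, and 669 and 150 of 7358 with those cells.

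Syt4, Syt5 and Syt13 were higher in Hcrt neurons here too, and their plate values did not overlap. Syt4 ran from 7.08 to 357 CPM over Gad-low plates (median 251) beside the Hcrt range above, a log2 fold change of 2.22 ± 0.27 (adjusted p = 4.53e-08). Syt5 ran from 0 to 352 CPM in Gad-low (median 136), with 1.98 ± 0.35. Syt13 ran from 21.3 to 198 CPM in Gad-low (median 90.7), with 1.63 ± 0.28. The lowest Gad-low values of Syt4 and Syt5 were those of plate 19. Without plates 14 and 19 the log2 fold changes were 2.01 for Syt4, 1.48 for Syt5 and 1.38 for Syt13, each still past the threshold. Stx3 was higher as well (1.81 ± 0.58, adjusted p = 0.0445, and 2.33 without plates 14 and 19), with 0 to 51.9 CPM in Gad-low plates and plate 14 at the top; it missed the threshold under 4 of the alternatives, with adjusted p-values up to 0.319.

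Vamp1 and Cplx1 were lower in Hcrt neurons than in Gad-low cells. Vamp1 ran from 0 to 349 CPM over Gad-low plates (median 111.04), a log2 fold change of -2.81 ± 0.45, and lay below Gad-low in 9 of 10 plates. Cplx1 ran from 7.08 to 912 CPM over Gad-low plates (median 193), with a log2 fold change of -1.52 ± 0.45 (adjusted p = 0.0432) and 7 of 10 plates in that direction. Without plates 14 and 19 the log2 fold changes were -3.12 for Vamp1 and -1.82 for Cplx1, both past the threshold. Snap25 and Syt1 did not pass (log2 differences of -0.26 and -0.40), but without plates 14 and 19 both were called, at -0.62 and -0.73. In the Gad-low library of plate 19 Snap25 was listed at 0, which at its 102734 counts allows up to 29.2 CPM before scaling (3 counts, counting error only).

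Pmch neurons, the other peptide class, were compared with Hcrt neurons of the same 13 plates (61 and 756 cells). Of 35 members tested, 10 were higher and 7 lower in Pmch neurons (edgeR, over 7796 genes), against 13.2% higher and 17.5% lower among all genes tested. Plate values did not overlap for 3 members and 5% of all genes. The members' median log2 fold change was 0.09 and that of all genes -0.11.

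Both complexins, Syt1 and the release SNAREs Snap25, Vamp1 and Stx1a were higher in Pmch neurons. Cplx2 ran from 45.7 to 260.2 CPM over Pmch plates (median 169.8) and from 24.1 to 50.5 CPM over Hcrt plates (median 38.2). Only plate 17 among the Pmch plates fell into the Hcrt range, and Cplx2 was 4.30-fold higher (log2 fold change 2.11 ± 0.18, adjusted p = 2.39e-12). Syt1 ran from 258 to 953 CPM in Pmch (median 616), above the Hcrt values of the same plates, with a log2 fold change of 1.69 ± 0.15 (adjusted p = 1.83e-08). Cplx1 ran from 85.8 to 274 CPM in Pmch (median 205) and was higher in 13 of 13 plates, with 1.44 ± 0.16 (adjusted p = 1.45e-09).

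Snap25 ran from 969.5 to 1789.9 CPM over Pmch plates (median 1469), all above the highest Hcrt plate at 904 CPM, with a log2 fold change of 0.88 ± 0.07 (adjusted p = 2.53e-14). Vamp1 ran from 10.2 to 64.1 CPM in Pmch (median 37.2), overlapping Hcrt, with 1.14 ± 0.34 (adjusted p = 0.00786); with peptide gates of 0.2% in place of 1% it was 0.57 and did not pass. Stx1a, at 32.9 to 110.7 CPM in Pmch (median 62.3) and 23.6 to 43.5 CPM in Hcrt (median 38.0), was higher in 12 of 13 plates (0.74 ± 0.21, adjusted p = 0.00577); with gates of 0.2% it was 0.33 and did not pass. Vamp2 differed by 0.18, with an interval of -0.10 to 0.46.

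Syt7 stood out on the lower side. It ran from 4.16 to 42.5 CPM over Pmch plates (median 8.11) and from 45.0 to 88.04 CPM over Hcrt plates (median 63.9). The classes did not overlap, and Syt7 was 5.38-fold lower in Pmch neurons (log2 fold change -2.43 ± 0.28, adjusted p = 2.89e-09); only 48 Syt7 counts were found in all Pmch cells. Syt5, at 224 to 441 CPM in Pmch (median 285) and a median of 511 CPM in Hcrt, was lower in 13 of 13 plates (-0.77 ± 0.08, adjusted p = 8.42e-10). Smaller falls were found for Syt13 (-0.36 ± 0.11) and Syt11 (-0.30 ± 0.07). Syt11 did not pass with cells thinned to 10000 counts (log2 difference -0.20, edgeR adjusted p = 0.148).

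Syt4 did not differ past the threshold between the peptide classes. It ran from 305 to 1508 CPM over Pmch plates (median 1085) and from 957 to 1476 CPM over Hcrt plates (median 1123), a log2 difference of -0.22 with an interval of -0.57 to 0.14 (adjusted p = 0.409). The Pmch plates spread much more widely around a similar middle, and these libraries hold 3 to 8 cells each. Outside the release genes Stx7, Vamp7, Stx12 and Snap47 were higher in Pmch neurons, by log2 fold changes of 0.73 ± 0.09, 0.91 ± 0.17, 0.48 ± 0.11 and 0.29 ± 0.06. Stx4a and Stx16, syntaxins of the plasma membrane and the trans-Golgi network, were lower by -0.79 ± 0.29 and -0.64 ± 0.24.

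Among the 22 members without a test in this comparison, Stxbp6 (amisyn, a small protein that binds Stx1a) had 119 counts in 68 Pmch cells and 22 counts in 1065 Hcrt cells. It ran from 0 to 112.1 CPM over Pmch plates (median 20.4) and from 0 to 2.11 CPM over Hcrt plates (median 0). Without the gene filter its log2 fold change was 5.41, and it passed the test in that fit, where 937 of 35218 genes were higher and 2744 lower. Syt16 likewise had 76 counts in Pmch and 130 in Hcrt cells, with plate medians of 22.9 and 2.80 CPM, and passed at 2.67. Stxbp2 and Stx2 passed in the same fit as lower in Pmch neurons, with log2 fold changes of -2.80 and -2.08. They had 20 and 14 counts in Pmch cells against 810 and 405 in Hcrt cells.

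Gad neurons were set against Gad-low cells in 10 plates (257 and 59 cells). Of 27 members tested, 0 were called by edgeR, where 0.648% of 4633 genes were higher and 0.151% lower; 3 members had an unadjusted p under 0.05, and DESeq2 called 1. Syt1 came nearest, at 484 to 716 CPM over these 10 Gad plates (median 546) and 0 to 365 CPM over Gad-low plates (median 267). It was higher in Gad neurons in 10 of 10 plates, without overlap (found for 0.518% of all genes), with a log2 difference of 1.15 ± 0.31 (adjusted p = 0.0897), and it was called without plates 14 and 19, at 0.90. Syt4 (0.68, interval 0.08 to 1.28) and Cplx1 (0.94, interval 0.15 to 1.72) were the other members with an unadjusted p under 0.05. Vamp1, with medians of 138 CPM in Gad and 111.04 CPM in Gad-low cells, differed by 0.19, with a wide interval of -0.63 to 1.00, and its sign turned without plates 14 and 19.

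Where a role is filled by a pair of related genes, the share of the pair's counts on each was compared between classes. These shares are descriptions and compare the same pair across classes, since the counts are not scaled to transcript length. Vamp1 made up 23.1 ± 9.64% of the counts of Vamp1 and Vamp2 in Pmch, 14.5 ± 4.07% in Hcrt, 57.8 ± 13.5% in Gad and 57.9 ± 25.6% in Gad-low libraries (SD over 13, 19, 16 and 10 plates). The Gad-low share was 64.2 ± 16.4% over 9 plates when only cells that met the neuron criterion were summed. Most of the pair's counts in the peptide classes were thus on Vamp2. Cplx1 made up 53.1 ± 12.1% of the complexin pair in Pmch, 65.7 ± 6.68% in Hcrt, 85.2 ± 5.17% in Gad and 81.4 ± 13.6% in Gad-low libraries (79.5 ± 12.8% for cells that met the neuron criterion). Hcrt plates ran from 55.9 to 78.6% and Gad plates from 78.8 to 97.0%, without overlap.

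Syt4 held 63.4 ± 11.8% of the counts of Syt4 and Syt11 in Pmch, 62.7 ± 3.35% in Hcrt, 37.5 ± 6.63% in Gad and 38.4 ± 22.3% in Gad-low libraries. The Gad-low value includes plate 19 at 100%, and among cells that met the neuron criterion it was 32.0 ± 5.45% (9 plates).

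**Figure D3:**
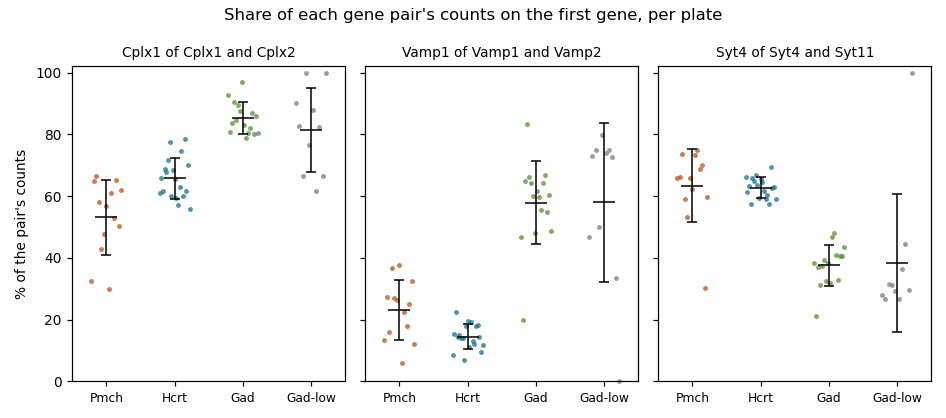
Share of a gene pair's counts that fell on the first gene (%, axis from 0), for each plate of Pmch (13), Hcrt (19), Gad (16) and Gad-low cells (10); black bars are the mean ± SD. The Vamp1 share is at or below 37.8% in every Pmch and Hcrt plate, and its mean is 57.8% in Gad plates. The ranges overlap: Gad plates run from 20 to 83.4% and Gad-low plates from 0 to 79.8%.

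The make-up of the synaptotagmin counts followed the same lines. Syt4 gave 34.2 ± 9.98% of all synaptotagmin counts in Pmch, 37.7 ± 2.88% in Hcrt, 17.9 ± 3.68% in Gad and 16.4 ± 2.93% in Gad-low libraries. Syt1 gave 22.1 ± 7.54% in Pmch, 6.53 ± 1.24% in Hcrt, 24.2 ± 3.95% in Gad and 15.8 ± 7.28% in Gad-low libraries. For Gad-low cells that met the neuron criterion the shares were 16.6 ± 3.16% for Syt4 and 17.5 ± 5.10% for Syt1 (9 plates). Hcrt neurons thus had the Syt4 share of the other peptide class without its Syt1 share. Syt5 gave 17.5 ± 1.82% in Hcrt and between 8.87 and 10.9% on average in the other classes.

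**Figure D4:**
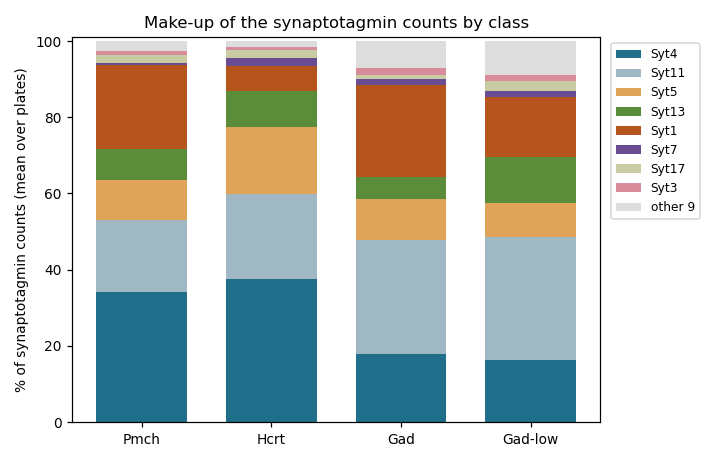
Mean share of all synaptotagmin counts (%) that fell on each of 8 synaptotagmins and on the other 9 together, in Pmch, Hcrt, Gad and Gad-low libraries. Syt4 is the lowest block of each bar, at 34.2% in Pmch, 37.7% in Hcrt, 17.9% in Gad and 16.4% in Gad-low cells; the Syt1 block is thinnest in Hcrt, at 6.53%.

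Single cells were then compared after each cell with at least 10000 counts was thinned to 10000. This matches the total only: the peptide gene took a median of 17.7% of the counts of a Pmch cell and 13.5% of those of an Hcrt cell, which leaves fewer counts for other genes than in Gad and Gad-low cells. This left 68 Pmch, 1055 Hcrt, 316 Gad and 67 Gad-low cells, with 0, 10, 11 and 4 cells too shallow. Vamp1 had a count in 19.1% of Pmch cells, 12.04% of Hcrt cells (exact 95% interval 10.1 to 14.2), 54.4% of Gad cells (48.8 to 60.0) and 50.7% of Gad-low cells; without thinning the shares were 54.4%, 28.3%, 68.2% and 60.6%. Cplx1 had a count in 60.3%, 34.2%, 80.7% and 55.2% of the same classes, and in Gad cells it reached 12 counts at the 90th percentile, against a median of 3. Syt7 had a count in 13.2% of Pmch, 40.8% of Hcrt, 22.2% of Gad and 23.9% of Gad-low cells. In the 58 thinned Gad-low cells that met the neuron criterion the shares were 55.2% for Vamp1, 60.3% for Cplx1 and 25.9% for Syt7.

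Syt4 was found in 98.5% of Pmch and 99.7% of Hcrt cells, with medians of 7 and 9 counts, and in 87.3% of Gad and 65.7% of Gad-low cells, with medians of 4 and 2; in the Gad-low cells that met the neuron criterion it was found in 74.1%. Syt2 had a count in 0 of 68 Pmch cells (up to 5.28%), 0.569% of Hcrt, 11.7% of Gad and 14.9% of Gad-low cells, and Stxbp6 in 19.1% of Pmch, 0.379% of Hcrt, 4.43% of Gad and 10.4% of Gad-low cells. In Gad-low cells that met the neuron criterion these shares were 17.2% for Syt2 and 12.07% for Stxbp6. In the wells labelled ERCC or empty that had under 1000 counts, whose median depth was 168 counts, Vamp1, Cplx1, Syt7 and Syt2 each had a count in 1 well and Syt4 and Stxbp6 in none.

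**Figure D5:**
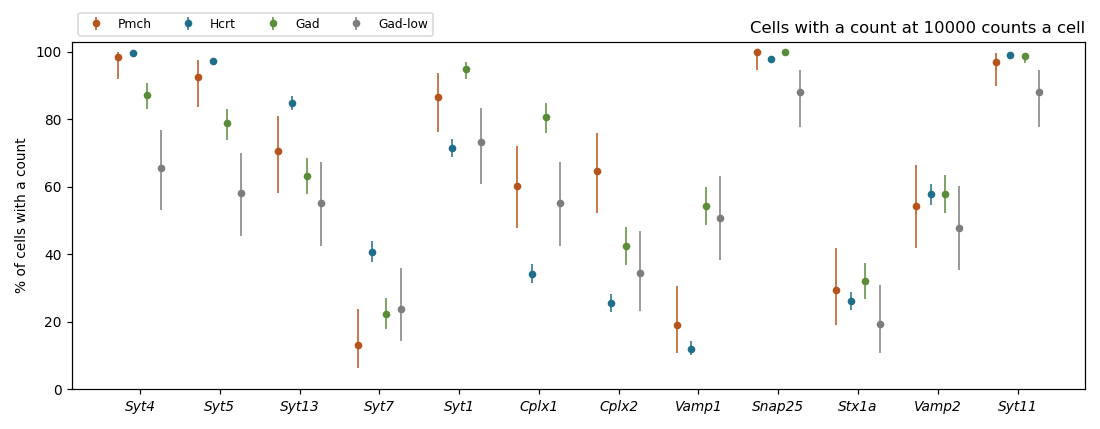
Share of cells with at least 1 count (%, axis from 0) after thinning to 10000 counts, for 12 members in 68 Pmch, 1055 Hcrt, 316 Gad and 67 Gad-low cells; bars are exact 95% intervals and cover counting error only. Hcrt cells are lowest for Cplx1, Cplx2 and Vamp1 (34.2, 25.6 and 12.04%) and highest for Syt7 (40.8%).

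The other genes of the release machinery were counted from a list of 43 genes. In Hcrt over Gad neurons 35 were tested, and 10 were higher and 16 lower in Hcrt, beside 21.7% and 17.2% of all genes. Rab3b, a vesicle GTPase, had 493 ± 64.0 CPM in Hcrt and 73.8 ± 49.6 CPM in Gad (log2 fold change 2.75 ± 0.17), and Nsf, the ATPase that takes SNARE bundles apart, had 133 ± 29.9 CPM in Hcrt and 441 ± 92.5 CPM in Gad (-1.76 ± 0.09; SD, n = 16 plates). Rph3a and Cadps2, a Rab3 effector and a priming factor of dense-core vesicles, were lower in Hcrt by -6.37 ± 0.32 and -5.33 ± 0.24. In Hcrt over Gad-low cells 28 were tested, with 1 higher and 1 lower, Rab27b and Nsf, beside 6.27% and 0.702% of all genes. In Pmch over Hcrt neurons 29 were tested, with 7 higher and 5 lower, beside 13.2% and 17.5% of all genes. Sv2b, a vesicle glycoprotein, had 57.5 ± 25.7 CPM in Pmch and 9.56 ± 3.29 CPM in Hcrt, and Synpr (synaptoporin) had 2.05 ± 5.06 CPM in Pmch and 34.9 ± 11.6 CPM in Hcrt (SD, n = 13 plates). In Gad over Gad-low cells 29 were tested and 2 were higher, Cadps2 and Sv2c, beside 0.648% of all genes.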

How the data were processed

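Single cells were picked by hand into plates, and the authors deposited 1 table of whole-number counts per gene and well; per the submitters' processing notes, bcl2fastq 2.20, cutadapt 2.1.0, STAR 2.7.5c, STARsolo 2.7.5c, Seurat 2.3.4, R 3.4.3 and build GRCm38 are listed, with no role or order. Which annotation release was counted, whether strand was used and whether molecular identifiers were collapsed is not given in the sources used here. Without strand, reads of overlapping genes on opposite strands cannot be told apart; 27 members overlap another gene, and reads of the pseudogenes Vamp7-ps and Stxbp3-ps may belong to their parent genes. The deposited well table gives the percentage of each well on ERCC spike-ins, as the authors computed it; these values were not used. GENCODE M21 held 56 of the 57 members and 99.6% of all identifiers.

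Wells labelled LHA with at least 1000 detected genes were classed by the gates given above, a rule made for this work, so class names rest on these genes alone. No doublet caller was run, since cells were picked singly by hand, and the 3 wells with both peptides were left out. Counts were summed per plate and class (at least 3 cells), filtered with filterByExpr, scaled by TMM and tested with edgeR 4.0.16 (quasi-likelihood, R 4.3.3, limma 3.58.1), with the plate as a block and Benjamini-Hochberg adjustment over all genes tested. The block is the plate on which cells of both classes were processed, per the deposited well names. The approximate standard error is the size of the log2 fold change over the root of its F value, and approximate 95% intervals are built from it. In the single-cell shares, each cell was thinned to 10000 counts; intervals are exact Clopper-Pearson and, like the floors of 3 counts, cover counting error only. Levels are not scaled to gene length, so they are compared between classes and not between genes.

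The text names 10 fixed members (Snap25, Stx1a, Vamp1, Vamp2, Syt1, Syt4, Syt7, Syt11, Cplx1 and Cplx2) and every member that passed the test (adjusted p under 0.05), differed by 1 or more on the log2 scale and reached 20 plain CPM in the higher class; other names were chosen after their values were seen. Counts of members cover all of them, but some members are not reported here by name. The members and lists were chosen with earlier results of these data known. On simulated counts, the test recovered 88.8% of 2-fold changes in Hcrt over Gad (9129 genes), 54.0% in Hcrt over Gad-low (7255), 85.3% in Pmch over Hcrt (7601) and 66.7% in Gad over Gad-low (4420), and 100% of 4-fold changes in each. These rates hold only for the spread of the simulated counts. In the data Syt7 was not called in Hcrt over Gad-low, with an interval of 0.36 to 2.17 on the log2 scale. That interval includes a 4-fold change, so an uncalled member may still differ by that much. Alternatives were no gene filter, relative log expression size factors, DESeq2 1.42.0, no block, 5 cells per library, peptide counts left out, gates of 0.2%, a Gad limit of 10 counts, neurons only, thinned cells and all classes in one fit; plain library totals and leaving out plates 14 and 19, and shares of Gad-low cells on neurons only, were added after seeing the data. Python 3.11.15 made the sums and figures.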

Additional observations from a re-analysis of the deposited data

Results flagged for a closer look

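Of 13 sets of plate values tested for a single stray library, 5 had one. The 5 come from the same 10 Gad-low libraries and are not independent, so their number cannot be set against a chance rate. Whether the other classes hold fewer stray libraries cannot be judged from this count. In the Gad-low library of plate 19, Syt4 was lowest at 7.08 CPM, with the next at 210.4 CPM, and Syt11 was lowest at 0, with the next at 426 CPM; all 4 cells of that library resembled qRNA wells more than neurons. Stx3 was highest in plate 14, at 51.9 CPM against 18.6 CPM in the next, where 4 of the 9 cells did so. Stx1a was highest in plate 18, at 110.2 CPM against 50.7 CPM in the next, and Vamp1 in plate 8, at 349 CPM against 179 CPM.

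Wells labelled qRNA, which enter no comparison, held a median of 26.5 member counts, against 1 in wells labelled ERCC or empty. Their depth differs: qRNA wells had a median of 18251 counts, with 0.153% on members, and the ERCC or empty wells a median of 172, with 0.610% on members. One well labelled empty held 656 member counts among 100707 counts in all, which is within the range of the cells.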

How the results depend on the processing

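Only the fixed members and those that met the naming rule in a comparison were followed singly. All 163 alternative values of such members called in Hcrt over Gad neurons kept their direction and side of the threshold. Stx7, Vamp7, Stx3, Vamp3 and Stxbp2, named outside that rule in this comparison, are not among them. With plain totals 7 members were higher in Hcrt than in Gad, against 10. In Hcrt over Gad-low, 72 of 76 did, and the exceptions were all Stx3. In Pmch over Hcrt 86 did, and the 7 that did not were those of Stx1a (3), Syt11 (3) and Vamp1 (1). The numbers of members called shifted more, as follows, and the cause was not tested. Calls over all genes moved too and are given beside them. Members lower in Hcrt than in Gad numbered 21 with plain totals, against 10, and all genes 4100 of 9271, against 1596. In Hcrt over Gad-low, 8 were higher with all classes in one fit, against 4, and against 2 lower there were 6 with no gene filter, 4 with gates of 0.2%, 4 with neurons only, 1 with thinned cells, 6 in one fit and 4 without plates 14 and 19. Of all genes, 1125 of 7937 were higher in one fit, against 474 of 7554. Against 53 of 7554 lower, there were 238 of 31193 with no gene filter and 53 of 8448 with gates of 0.2%. With neurons only 150 of 7358 were lower, with thinned cells 29 of 2863 and in one fit 432 of 7937. In Pmch over Hcrt, against 7 members lower, there were 11 with no gene filter, 3 with gates of 0.2% and 2 with thinned cells. Of all genes, 1361 of 7796 were lower, and 2744 of 35218, 772 of 7897 and 430 of 2937 in the same settings. In Gad over Gad-low, where 0 members were higher, 3 were with no gene filter, 1 each with DESeq2, 5 cells, a Gad limit of 10, neurons only and without plates 14 and 19, and 6 in one fit. Of all genes, 30 of 4633 were higher, and 145 of 26356 with no gene filter and 479 of 7937 in one fit.

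Among the members followed singly, signs turned only for those that had not passed. In Hcrt over Gad the log2 difference was 0.091 for Syt11 with no gene filter and -0.34 for Vamp2 with plain totals. In Hcrt over Gad-low it was -0.086 for Syt11 with plain totals. In Pmch over Hcrt Vamp2 was at -0.019 with no gene filter and -0.029 with thinned cells. In Gad over Gad-low, Vamp1 was at -0.26 with 5 cells, -0.33 with gates of 0.2%, -0.11 with neurons only, -0.0061 with thinned cells and -0.015 without plates 14 and 19. In the same settings Cplx2 was at -0.21, -0.39, -0.018, -0.055 and -0.034, and Snap25 was at -0.067 with 5 cells and -0.032 with gates of 0.2%.

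Without the plate as a replicate block, 10 members were higher and 12 lower in Hcrt over Gad, 5 and 2 in Hcrt over Gad-low, 12 and 5 in Pmch over Hcrt, and 0 and 0 in Gad over Gad-low. Of all genes, 1864 were higher and 1899 lower of 9271 in Hcrt over Gad, and 545 and 264 of 7554 in Hcrt over Gad-low. In Pmch over Hcrt they were 1288 and 1312 of 7796, and in Gad over Gad-low 40 and 17 of 4633. Single plates were not left out in turn, since each comparison has at least 10. Depth is low in single libraries of few cells: at a count of 0, a Gad-low library of 30464 counts allows up to 98.5 CPM and a Gad library of 47423 counts up to 63.3 CPM (3 counts, before scaling).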

Other observations

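The members found most often in the qRNA wells were SNAREs of other traffic steps. Snap47 had a count in 51 of 68 such wells, Vamp8, a SNARE of endosomes and secretory granules outside neurons, in 45 and Stx7 in 38, whereas Snap25 had one in 5, Syt4 in 4, Syt1 in 3 and Cplx1 in 0.

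Snap47 had its extremes on the same plates in several classes. Its highest plate was 19 and its lowest plate 10 in all 3 classes with 13 or more libraries: 3882 and 1111 CPM in Pmch, 2782 and 1308 CPM in Hcrt and 3012 and 1089.9 CPM in Gad libraries. Of 35 members tested in both comparisons, Snap47 alone had the same highest and lowest plate in the 3 classes over the 12 plates that hold them all, which was found for 0.296% of 7768 genes. Snap47 overlaps Jmjd4 on the opposite strand in GENCODE M21, and it was picked out after its values were seen. Libraries of 1 plate share their processing, and the plates carry no label of mouse or day, so the source of this pattern was not tested.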
